A study of Mus musculus with 18 samples.

Results

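The early transcriptional response to TCR stimulation was measured in naive CD4+ T cells that lacked both *Nr4a1* and *Nr4a3* (double-knockout, DKO). The 6 libraries described here, of 18 in the series, are 3 of DKO naive cells kept for 3 h with plate-bound anti-CD3 at 8 ug/ml and anti-CD28 at 2 ug/ml, and 3 of the same cells without stimulation, chosen by their labels as the DKO libraries of the naive gate. All 55284 named entries of the count table are the members. Each of the 3 chimeras, numbered 10, 11 and 12, gave 1 library of each kind, so that every stimulated library has an unstimulated partner from the same host. DKO cells (Nr4a1-/- Nr4a3-/-, C57BL/6 background) had developed in competitive chimeras, in which germline DKO marrow and WT marrow had been transplanted at 1:5 into irradiated BoyJ hosts. The cells were sorted from spleen and lymph nodes as CD4+ CD25- cells with a naive surface phenotype that included low CD44, FR4 and CD73, a gate that leaves out most regulatory, memory and anergic cells. Unstimulated cells were lysed directly after the sort, whereas stimulated cells had been plated with antibodies. As no library of cells kept in culture without antibodies was among the 18, effects of the antibodies and of plating and culture cannot be told apart. The ages of the mice are not given in the labels. The libraries of WT naive cells from the same hosts, with and without stimulation, are used for comparison only.

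Ligation of the TCR together with CD28 activates calcineurin and NFAT, the Ras and ERK cascade that induces AP-1 and EGR factors, and PKC-theta and NF-kB. Immediate early genes encoding transcription factors are induced first, without new protein synthesis, and are followed by cytokines, their receptors and feedback inhibitors. At the same time a resting cell leaves quiescence: homing and survival genes controlled by FOXO1 and KLF2 are turned down, and MYC and mTORC1 raise ribosome production, amino acid uptake and nucleotide synthesis ahead of the first division. The NR4A nuclear receptors are themselves immediate early products of this pathway, and the remaining family member in DKO cells is *Nr4a2*.

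The 3 genes used to check the stimulation label behaved as the label says in every chimera. *Nr4a2*, which encodes NURR1, stood at 1.5, 1.87 and 1.9 TPM in the unstimulated libraries of chimeras 10, 11 and 12 and at 789.5, 1067 and 1071 TPM in their stimulated partners. The log2 fold change was 9.38 ± 0.51 (SE), the adjusted p 1.7e-11 by edgeR's quasi-likelihood test. *Irf4* (chr13:30749226-30766976, plus strand, mm10), a factor whose amount follows the strength of the TCR signal, went from 6.05, 5.28 and 6.86 TPM to 617, 557 and 609 TPM in the same order (log2 fold change 6.91 ± 0.31 (SE), adjusted p = 3.51e-13). *Egr2*, a target of NFAT with roles in anergy, went from 38.8, 35.7 and 32.6 TPM to 794, 918 and 1009 TPM (log2 fold change 4.96 ± 0.33 (SE), adjusted p = 1.95e-10). For each of the 3 genes the lowest stimulated library lay above the highest unstimulated one. TPM are scaled per library and per gene length, while fold changes come from the read counts with TMM factors, so that a ratio of TPM can differ from the fitted fold. A bare value given for a gene's rise, fall or failed test below is its fitted log2 fold change. Every value here is relative to the rest of its library: RNA per cell was not measured, and fewer cells of a type cannot be told apart from less RNA per cell.

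Both disrupted genes were still counted, so the counts of *Nr4a1* and *Nr4a3* do not check the genotype. *Nr4a1* (chr15:101254269-101274795, plus strand, mm10) had 79.2, 107 and 87.6 TPM without and 5299.8, 6915 and 7343 TPM with stimulation (log2 fold change 6.44 ± 0.40 (SE), adjusted p = 5.97e-11). *Nr4a3* (chr4:48045153-48086447, plus strand) had 2.4, 5.38 and 3.87 and 389, 552 and 571 TPM (log2 fold change 7.35 ± 0.33 (SE), adjusted p = 3.51e-13), with no overlap between the groups for either gene. These counts are of whole genes, so they do not show which exons were read and say nothing of functional protein. The paper reports loss of the deleted *Nr4a1* exon in DKO mice, by PCR of genomic DNA and quantitative PCR of transcripts.

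Promoter sequence is shown for 4 induced genes that stand for the arms of the pathway: *Nr4a2* and *Egr2* for the immediate early factors, *Tnfaip3* (encoding A20, an inhibitor of NF-kB) for the NF-kB targets and *Il2* for the NFAT and AP-1 targets. Each sequence is the 250 bases before the annotated start, from RefSeq on GRCm38.p6, read 5′ to 3′ on the gene's own strand. Capitals mark matches, on either strand, to GCGNGGGCG for EGR in *Nr4a2*, to the CArG box bound by SRF in *Egr2*, to TGANTCA for AP-1, CACGTG (the E box) and GGGNTTTCC for NF-kB in *Tnfaip3*, and to GGAAAA, the NFAT core, in *Il2*. The windows are chr2:57124004-57124253 (minus strand), chr10:67537619-67537868 (plus strand, 1 of 5 annotated starts), chr10:19015411-19015660 (minus strand, 1 of 2 starts) and chr3:37125955-37126204 (minus strand).
Nr4a2: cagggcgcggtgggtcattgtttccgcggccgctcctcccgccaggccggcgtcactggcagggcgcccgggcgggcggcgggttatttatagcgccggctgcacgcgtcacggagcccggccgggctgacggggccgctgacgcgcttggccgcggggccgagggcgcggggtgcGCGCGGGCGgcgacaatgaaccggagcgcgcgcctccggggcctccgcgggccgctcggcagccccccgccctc
Egr2: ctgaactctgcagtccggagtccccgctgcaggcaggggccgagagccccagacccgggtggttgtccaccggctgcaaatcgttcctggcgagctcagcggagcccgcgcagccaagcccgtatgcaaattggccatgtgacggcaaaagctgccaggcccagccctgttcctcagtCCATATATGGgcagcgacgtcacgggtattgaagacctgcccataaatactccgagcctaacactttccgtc
Tnfaip3: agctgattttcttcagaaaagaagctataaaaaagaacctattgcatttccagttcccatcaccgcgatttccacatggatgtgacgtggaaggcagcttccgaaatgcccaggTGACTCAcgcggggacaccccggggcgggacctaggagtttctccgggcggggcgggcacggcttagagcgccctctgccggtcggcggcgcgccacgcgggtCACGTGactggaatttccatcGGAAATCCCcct
Il2: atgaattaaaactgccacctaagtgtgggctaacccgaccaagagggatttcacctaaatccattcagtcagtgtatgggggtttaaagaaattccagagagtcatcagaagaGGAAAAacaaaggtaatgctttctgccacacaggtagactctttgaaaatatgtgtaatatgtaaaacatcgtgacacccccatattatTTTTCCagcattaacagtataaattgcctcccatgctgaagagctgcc

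The EGR match in *Nr4a2* begins 74 bases before the start, and the CArG box in *Egr2* 72 bases before it. In *Tnfaip3* the AP-1 match begins 136, the E box 33 and the NF-kB match 12 bases before the start, while in *Il2* the NFAT cores begin 137 and 48 bases before it. Of 32851 mouse promoter windows with the same 250 bases, 4.7% hold the EGR letters, 1.47% the CArG box, 6.75% the AP-1 letters, 1.46% those of NF-kB, 6.02% the E box and 20.4% the NFAT core. Each match is a description of the letters and not of binding. Windows were at hand for 74.7% of the genes that rose and 74.6% of those that fell, which is too few to compare motif shares between called genes, so that comparison is void.

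Total counts were 16122020 to 26837423 in the unstimulated and 28438254 to 35766343 in the stimulated libraries, and the libraries of a group were further apart than read sampling gives (mean chi-square over genes of 6.96 to 20.4 for a pair of libraries). The stimulated libraries held less background: counts in 1997 olfactory and vomeronasal receptor entries, which T cells do not use, took 2477 to 3154 CPM without and 1417 to 1688 CPM with stimulation. Genes at 10 TPM or more numbered 9980 to 10575 without and 8175 to 8804 with stimulation. These differences run with the stimulation, and their part in the lower calls among weakly expressed genes was not tested. The TMM factors were 1.09 to 1.18 for unstimulated and 0.739 to 0.941 for stimulated libraries. The median log2 fold change was −0.33 over the 33795 genes tested and −0.15 over the 15067 with a mean logCPM over 1. The medians of gene groups below should be read against both levels. The WT libraries of chimera 12 stood apart from their group (807 CPM of receptor entries without and 572 with stimulation), and all 18 libraries share 1 estimate of the spread: without those WT libraries, 4985 genes were higher and 2844 lower in DKO cells. SMART-seq libraries do not keep strand, so reads of overlapping genes on opposite strands cannot be told apart. Of the genes with values below this touches, among others, *Il2* (with *Adad1*), *Nab2* (*Stat6*), *Junb* (*Prdx2*), *Tnfrsf9* (*Camta1*), *Vsir* (*Cdh23*), *Shmt1* (*Smcr8*), *Hspd1* (*Hspe1*), *Stat3* (*Stat5a*) and *Ccnd3* (*Bysl*).

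After 3 h of stimulation, 2820 genes were called higher and 1937 lower at an adjusted p under 0.05, which is 8.34% and 5.73% of the 33795 tested. Of these, 1880 rose and 1438 fell by at least 2-fold, and 72 rose and 10 fell by at least 16-fold. Among the 15067 genes with a mean logCPM over 1, 2674 were higher and 1764 lower. Counts of called members in the gene groups below should be read beside these. Of all called genes, 59.3% were higher ones. With RLE factors, which change only the scaling, that share was 70.9% (2658 higher and 1092 lower). It was 69.9% with DESeq2 (3285 and 1415) and 41.6% with limma on log2(TPM + 1) (3052 and 4281), which change the model as well. It was 79.2% without chimera 10 (2830 and 742), and without chimera 11 the calls dropped to 1247 and 833. Fitted on the DKO naive groups alone, 5108 genes were higher and 3230 lower.

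In the deposited TPM, the genes called higher took 17.2% to 17.8% of the transcripts in the unstimulated libraries and 37.5% to 41.8% in the stimulated ones, and those called lower went from 14.7% to 15.5% down to 4.4% to 5.46%. The 72 genes that rose at least 16-fold went from 0.091% to 0.0985% of the transcripts up to 2.33% to 3.1%. Being chosen by the same comparison, these shares are a description. The log2 change in one chimera correlated with that in another at r = 0.496 to 0.533 over all 33795 genes tested and at r = 0.831 to 0.874 over the 15067 with a mean logCPM over 1, a correlation across genes that share a library and are not independent replicates.

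The most strongly induced genes had short loci. Among protein-coding genes with a mean logCPM over 1, the 63 that rose at least 16-fold spanned a median of 9.75 kb with 5 exons, the 299 that rose 4-fold to 16-fold spanned 21.9 kb with 8 exons, and the 2133 that rose less spanned 23.9 kb with 10 exons. The 233 genes that fell at least 4-fold spanned 19.1 kb with 8 exons, and the 8442 genes not called spanned 29.2 kb with 10 exons. The exon number is the largest among a gene's annotated transcripts, and the classes are described without a test.

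All 9 NR4A and EGR genes and their corepressors rose (median log2 fold change 4.75, against −0.33 over all genes). *Egr3*, which like *Egr2* restrains T cell activation, went from 10.8, 7.28 and 6.96 TPM to 154, 222 and 174 TPM (log2 fold change 4.75 ± 0.36 (SE), adjusted p = 1.08e-09). *Egr1*, the founding member of the family, reached the highest level of the EGR genes, at 1746, 1939 and 2279 TPM from 135, 105 and 111 TPM (log2 fold change 4.38 ± 0.34 (SE), adjusted p = 1.57e-09), and *Egr4* was at or near 0 without stimulation (0, 0.0666 and 0 TPM) and at 1.74, 1.54 and 1.86 TPM with it. *Egr1*, *Egr4*, *Nab1* and *Nab2*, like *Junb*, *Il2rb*, *Il2rg*, *Il2* and *Isg20* below, fall outside the rule for named genes and were chosen after their values were seen. Of the NAB corepressors, which bind EGR proteins, *Nab2* rose more (log2 fold change 3.19) than *Nab1* (1.51). No EGR or NR4A gene overlapped between the stimulated and unstimulated libraries, but the share of all genes without overlap was not counted.

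**Figure D1:**
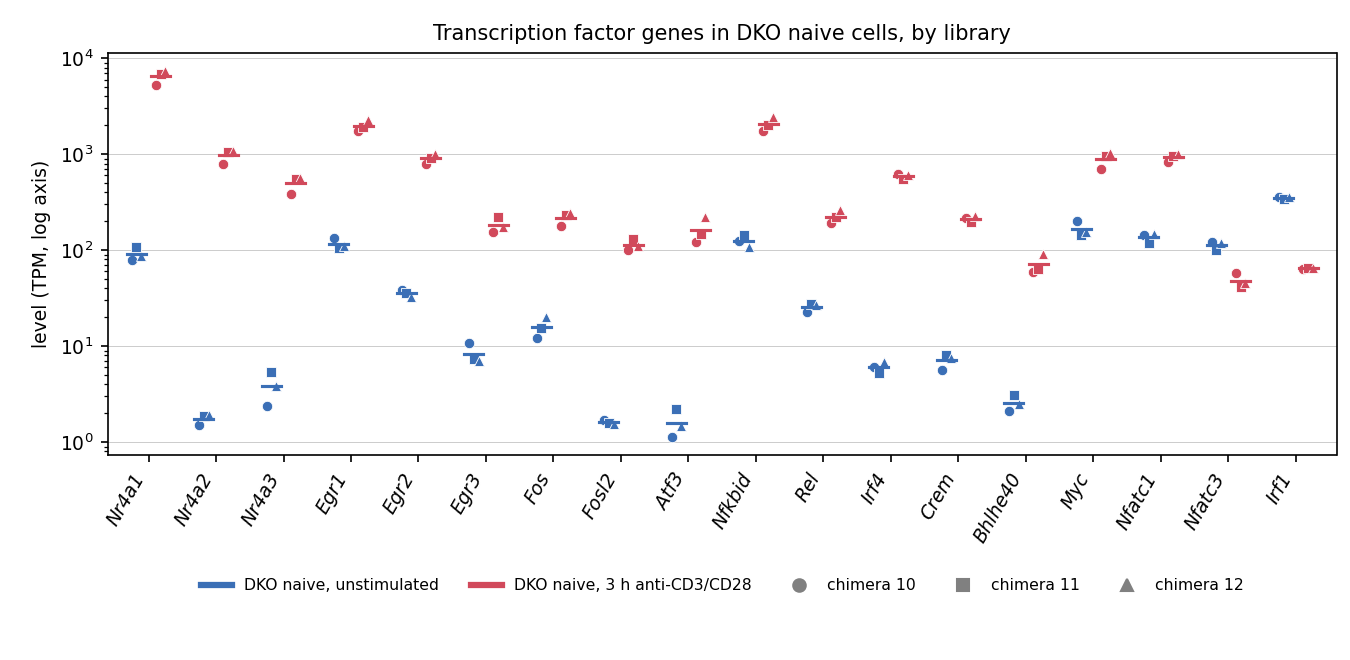
Deposited TPM of the NR4A, EGR and other transcription factor genes in each DKO library, on a log axis; each point is 1 library (blue unstimulated, red stimulated for 3 h, with a marker shape per chimera) and each bar the mean of 3 libraries. The stimulated libraries of *Nr4a2* sit between 789.5 and 1071 TPM and the unstimulated ones below 2 TPM.

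Ranked by adjusted p over all genes, the strongest rises outside the gene groups included *Sema7a* and *Chst2*. *Sema7a*, a membrane-anchored semaphorin of activated T cells, went from 0.479, 0.521 and 0.72 TPM to 43.6, 99.4 and 79.6 TPM (log2 fold change 7.1 ± 0.41 (SE), adjusted p = 3.14e-11), and *Chst2*, a sulfotransferase, from 0.763, 0.723 and 0.513 TPM to 38.8, 60.3 and 39.4 TPM (log2 fold change 6.31 ± 0.41 (SE), adjusted p = 1.28e-10). Both were close to background in all 3 unstimulated libraries and expressed in all 3 stimulated ones.

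Of 12 AP-1 and BATF genes tested, 9 rose and 0 fell (median 2.76). *Fosl2*, which encodes the slowly turned over partner FRA2, went from 1.69, 1.57 and 1.55 TPM to 99.8, 132 and 110.2 TPM (log2 fold change 6.4 ± 0.38 (SE), adjusted p = 3.85e-11), and *Fos* from 12, 15.5 and 20.1 TPM to 179, 234 and 242 TPM (log2 fold change 4.1 ± 0.29 (SE), adjusted p = 3.7e-10). *Fosb* rose with a log2 fold change of 4.21, and *Atf3*, a stress-responsive member of the ATF family, went from 1.13, 2.19 and 1.47 TPM to 122, 149 and 222 TPM (log2 fold change 6.83 ± 0.55 (SE), adjusted p = 2.64e-09). Among partners already present in resting cells, *Junb* (396 ± 24.7 to 1419 ± 188 TPM, mean ± SD over 3 chimeras) rose by 2.13 and *Jund* (199 ± 16.9 to 233 ± 22.5 TPM) did not pass the test (log2 fold change 0.52, adjusted p = 0.258). *Batf*, the partner of IRF4 at composite sites, had 102 ± 13.9 to 70.4 ± 8.9 TPM and did not pass either (log2 fold change −0.23, adjusted p = 0.605).

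NF-kB genes rose in 13 of 15 cases and 1 fell (median 1.88). *Rel*, the subunit that T cells make anew on activation, went from 22.5, 27.8 and 26.6 TPM to 189.7, 219 and 264 TPM (log2 fold change 3.44 ± 0.30 (SE), adjusted p = 9.17e-09). *Nfkb2* rose by 3.01 and *Relb*, its partner in the noncanonical pathway, by 2.41 on the log2 scale. The largest rise was that of *Nfkbid*, a nuclear IkB protein that acts with NF-kB at target genes, from 124, 144 and 108 TPM to 1734, 2028 and 2445 TPM (log2 fold change 4.32 ± 0.34 (SE), adjusted p = 2.42e-09). *Tnfaip3*, whose promoter is shown above, went from 51.5, 41 and 46.1 TPM to 250.3, 244 and 269.8 TPM (log2 fold change 2.77 ± 0.28 (SE), adjusted p = 1.41e-07), with no overlap between groups. *Bcl3* was lower (log2 fold change −0.98, adjusted p = 0.0192), a call that was lost with RLE factors, with DESeq2 and without chimera 10 or 11.

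The NFAT and calcineurin genes were mixed, with 4 of 11 higher and 2 lower (median 0.27). *Nfatc1*, the NFAT gene that is itself induced through an NFAT-driven promoter, went from 144, 118 and 148 TPM to 825, 962 and 1003 TPM (log2 fold change 3.07 ± 0.30 (SE), adjusted p = 6.53e-08). *Homer1*, a scaffold protein, rose by 2.14. *Ppp3cc*, a catalytic calcineurin subunit, fell by 1.62 on the log2 scale, while the subunits *Ppp3cb* (0.27) and *Ppp3r1* (0.10) did not pass the test. *Nfatc3* was lower (−0.94), and *Nfat5* (0.70) and *Rcan3* (1.07) were higher, but each of these 3 calls was lost without chimera 11, and that of *Nfatc3* without chimera 10 and with RLE factors and DESeq2 too. Leaving out chimera 11 left 2 genes of the list higher and 1 lower, and 4 were lower with limma on log2(TPM + 1).

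Among 24 other factors linked to activation, 16 rose and 2 fell (median 1.49). *Myc*, which drives growth in activated T cells, went from 202, 145 and 156 TPM to 705, 956 and 1021 TPM (log2 fold change 2.71 ± 0.31 (SE), adjusted p = 6.58e-07). *Bhlhe40*, needed for cytokine production by helper cells, went from 2.12, 3.07 and 2.48 TPM to 59.2, 63.5 and 91.5 TPM (log2 fold change 5.08 ± 0.39 (SE), adjusted p = 1.25e-09), and *Crem*, a cAMP-responsive factor, from 5.67, 8.18 and 7.59 TPM to 217, 196 and 227 TPM (log2 fold change 5.22 ± 0.31 (SE), adjusted p = 3.85e-11). *Bcl6*, the factor of follicular helper cells, rose by 3.69. *Gfi1*, a repressor that restrains lineage genes, is not among the 24 and is named for its small adjusted p. It went from 28.4, 20.8 and 27.1 TPM to 558, 635 and 670.1 TPM (log2 fold change 4.92 ± 0.30 (SE), adjusted p = 5.13e-11). The factor of the list that fell most was *Irf1*, a target of interferon signaling, from 361, 338 and 355 TPM to 63.4, 65.7 and 66 TPM (log2 fold change −2.13 ± 0.29 (SE), adjusted p = 6.84e-06). *Gata3* was lower (log2 fold change −1.21), a call that was lost without chimera 10. *Stat3* (−0.42, adjusted p = 0.358) and *Id2* (0.38, adjusted p = 0.38) did not pass.

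Of 18 receptors and surface molecules of activated T cells, 15 rose and 0 fell (median 2.8). *Il2ra*, which encodes CD25 and by which cells were excluded at the sort, went from 1.81, 2.05 and 2.01 TPM to 148, 150.4 and 182 TPM (log2 fold change 6.62 ± 0.37 (SE), adjusted p = 1.75e-11). *Cd69*, which holds activated cells in the lymph node by blocking S1PR1, went from 50.4, 59.5 and 57.1 TPM to 783, 806 and 1128 TPM (log2 fold change 4.31 ± 0.33 (SE), adjusted p = 1.13e-09). *Slamf1* rose by 4.54, *Tnfrsf9*, a costimulatory TNF receptor, by 4.0, and *Tfrc*, the transferrin receptor, by 3.51. The chains that complete the IL-2 receptor were present at rest and rose less, *Il2rb* by 1.41 and *Il2rg* by 1.21. The 3 genes of the list that did not pass were *Cd44* (0.30), *Crtam* (0.22) and *Fas* (−0.08).

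Inhibitory receptors were also induced at this early time, with 7 of 11 higher and 1 lower (median 1.54). *Pdcd1*, which encodes PD-1, went from 21.3, 19.3 and 21.2 TPM to 264, 345 and 388 TPM (log2 fold change 4.3 ± 0.37 (SE), adjusted p = 8.57e-09). *Tigit* rose from 0.934 ± 0.87 to 10.005 ± 3.33 TPM (log2 fold change 3.49), *Ctla4* by 2.91 and *Vsir*, which encodes VISTA, by 2.44 on the log2 scale. *Lair1*, a collagen-binding inhibitory receptor, was the exception and fell by 2.61. *Cd160* (0.52), *Havcr2* (−0.76) and *Cd101* (−0.42) did not pass the test.

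Of 28 cytokine and chemokine genes tested, 13 rose and 1 fell (median 0.93). *Tnfsf11*, which encodes RANKL, went from 2.17, 1.41 and 1.5 TPM to 279, 402 and 393 TPM (log2 fold change 7.91 ± 0.45 (SE), adjusted p = 2.44e-11), and *Tnf* from 39.8, 34 and 30.7 TPM to 445, 735 and 833 TPM (log2 fold change 4.54 ± 0.40 (SE), adjusted p = 1.05e-08). *Lif*, a cytokine of the IL-6 family, was near background without stimulation (1.12, 0.724 and 0.546 TPM) and at 27.1, 32.7 and 46.5 TPM with it (log2 fold change 5.64 ± 0.52 (SE), adjusted p = 2.78e-08). *Tnfsf14*, which encodes LIGHT, rose by 2.65 and *Fasl* by 2.69. *Il2*, the T cell growth factor whose promoter is shown above, went from 2.44, 2.25 and 1.56 TPM to 18.4, 19.9 and 25.7 TPM (log2 fold change 3.47 ± 0.52 (SE), adjusted p = 2.57e-05). It overlaps *Adad1* on the other strand. Another 14 genes of the list did not pass the test, among them *Il4*, a cytokine of type 2 helper cells (4.78 ± 1.02 to 3.16 ± 0.0895 TPM, log2 fold change −0.25, adjusted p = 0.79). *Il3*, *Il13* and *Il22* were below the low-count filter and were not tested. *Csf1* was lower (−0.99), which was lost with RLE factors, with DESeq2 and without chimera 11.

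Of 38 genes listed as negative regulators of TCR signaling, 25 rose and 6 fell (median 1.55). *Spry1*, a Sprouty protein, went from 4.52, 4.04 and 2.66 TPM to 258, 314 and 284 TPM (log2 fold change 6.46 ± 0.47 (SE), adjusted p = 4.94e-10), and the related *Spred1* rose by 3.35. The MAP kinase phosphatases *Dusp2* and *Dusp5* rose by 3.34 and 3.36, from means of 368 ± 12.8 to 3108 ± 653 TPM and 58.1 ± 4.85 to 489 ± 36.9 TPM. *Rgs16*, which ends G protein signals, went from 0.468, 1.1 and 0.338 TPM to 48.2, 88.2 and 104 TPM (log2 fold change 6.99 ± 0.48 (SE), adjusted p = 2.54e-10). *Socs3*, an inhibitor of STAT3 signals from IL-6 family receptors, went from 355, 272 and 350.3 TPM to 25.9, 22.4 and 26 TPM (log2 fold change −3.42 ± 0.28 (SE), adjusted p = 4.14e-09), with all 3 stimulated libraries below all unstimulated ones. *Sla2*, an adaptor that takes down the TCR, fell by 1.28. The lower calls of *Dgkz* (−1.06), *Dusp10* (−0.76) and *Ubash3a* (−0.89) were lost with RLE factors and without chimera 10 or 11, and the group had 2 lower members in each of these settings.

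**Figure D2:**
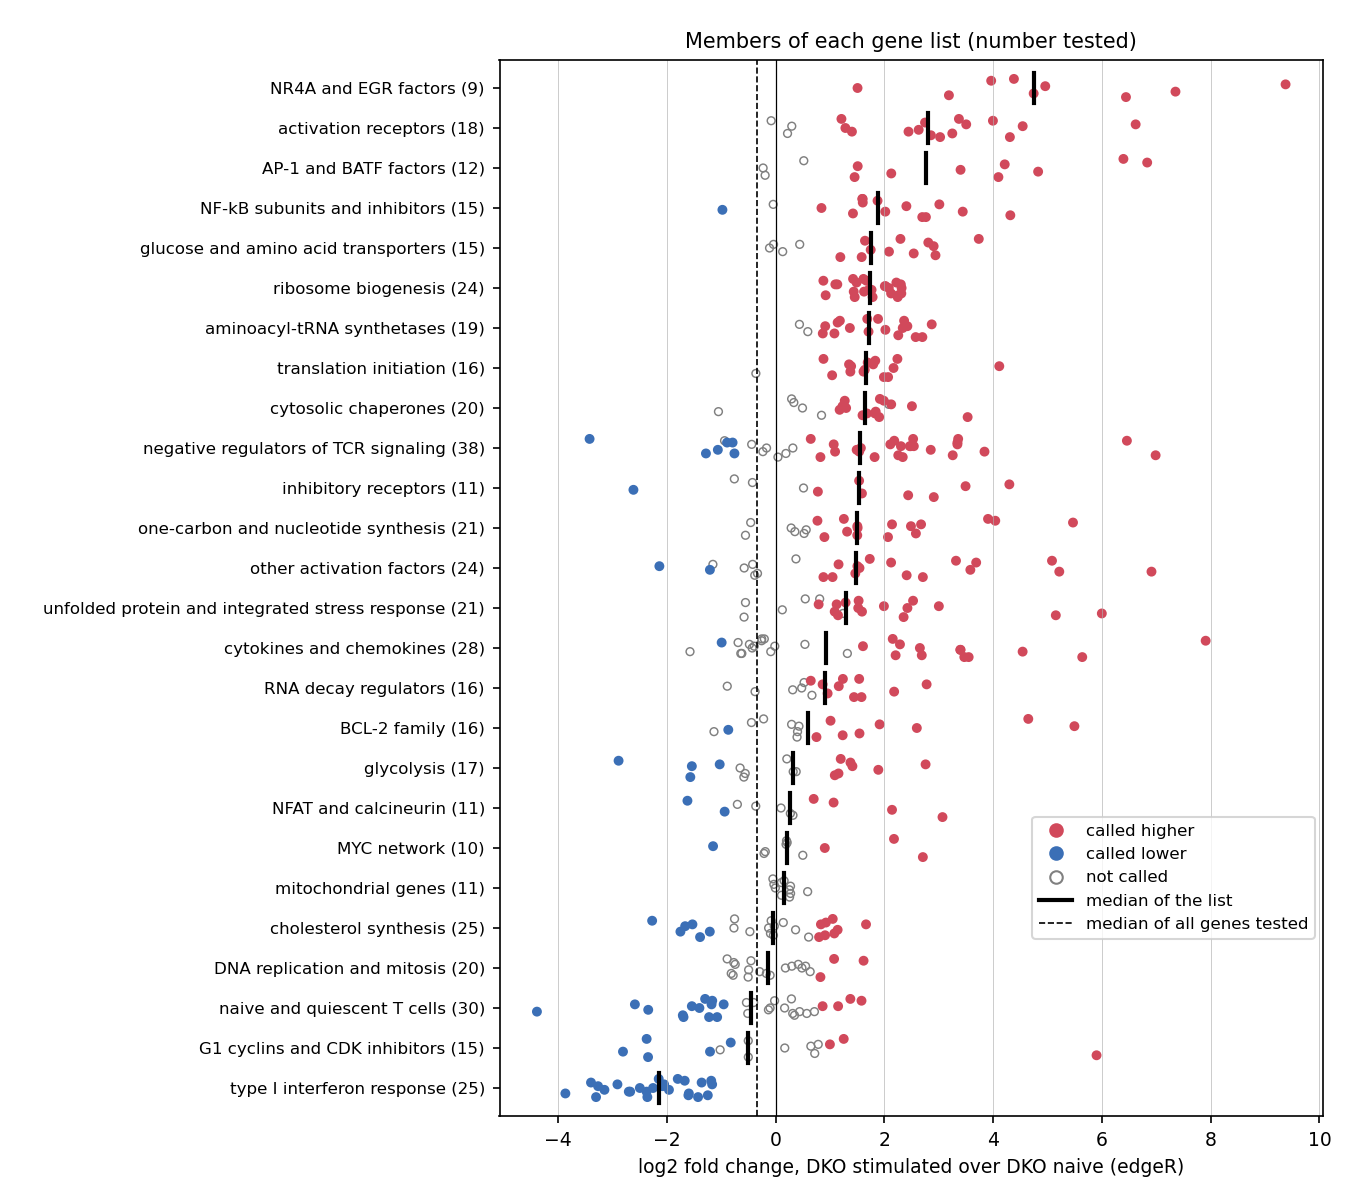
Fitted log2 fold change (stimulated over unstimulated DKO naive cells) of each gene, by gene group with the number tested; each point is 1 gene (red called higher, blue called lower, open not called), the thick bar the median of the group and the dashed line the median of all genes tested (−0.33). All 24 ribosome biogenesis genes are red and all 25 interferon genes blue.

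Regulators of RNA decay were higher in 10 of 16 cases and lower in 0 (median 0.91, with 6 higher without chimera 11). *Zfp36l1*, which binds AU-rich elements, went from 104, 79.7 and 91.8 TPM to 448, 567 and 519 TPM (log2 fold change 2.78 ± 0.30 (SE), adjusted p = 2.9e-07). *Zfp36* rose by 1.44 and *Zc3h12a*, the RNase Regnase-1, by 1.54, while *Zfp36l2*, which is abundant at rest, did not pass (−0.38, adjusted p = 0.408). *Btg2* and *Tob2*, both antiproliferative partners of the deadenylase complex, rose by 1.58 and 2.18.

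All 24 ribosome biogenesis genes rose (median log2 fold change 1.74, 21 higher without chimera 11), by 0.88 to 2.32. *Nop16* went from 60.005, 61.8 and 50.2 TPM to 205, 242 and 258 TPM (log2 fold change 2.32 ± 0.25 (SE), adjusted p = 3.25e-07), and *Nolc1*, a nucleolar chaperone of small ribonucleoproteins, rose by 2.25. *Polr1b*, a core subunit of RNA polymerase I, rose by 2.08 and *Nop58*, of the methylating ribonucleoprotein, by 2.02.

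Translation initiation genes rose in 15 of 16 cases (median 1.67) and tRNA synthetases in 17 of 19 (median 1.71). Without chimera 11, 12 genes of each group were higher, and with the DKO naive groups alone all 19 synthetases were. In some settings 1 initiation gene was lower: with limma on log2(TPM + 1), with TMM factors from genes with logCPM over 1 and with only those genes tested. *Eif4ebp1*, which blocks the cap-binding factor when mTORC1 is off, rose most of the initiation genes, from 8.47, 11.7 and 7.21 TPM to 103, 143 and 149 TPM (log2 fold change 4.11 ± 0.33 (SE), adjusted p = 2.6e-09), while its relative *Eif4ebp2* did not pass (−0.36, adjusted p = 0.301). *Eif2s2* and *Eif3c* rose by 2.17 and 2.24. Among the synthetases, *Cars* rose by 2.87, *Nars* by 2.7 and *Aars* by 2.58, and *Dars* (0.59) and *Qars* (0.44) did not pass the test.

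Serine, folate and nucleotide synthesis rose in 15 of 21 genes and fell in 0 (median 1.5). The largest rise was in *Odc1*, the rate-limiting enzyme of polyamine synthesis and a classic MYC target, from 53.9, 59.9 and 57.5 TPM to 1839, 2294 and 2057 TPM (log2 fold change 5.47 ± 0.37 (SE), adjusted p = 1.95e-10). *Psat1*, of serine synthesis, went from 27.5, 24.8 and 19.8 TPM to 258, 322 and 398 TPM (log2 fold change 4.04 ± 0.33 (SE), adjusted p = 3.01e-09), and *Shmt1*, of the cytosolic folate cycle, from 18.9, 14.5 and 15.4 TPM to 164, 198 and 245 TPM (log2 fold change 3.91 ± 0.28 (SE), adjusted p = 4.94e-10). *Phgdh* and *Mthfd2* rose by 2.58 and 2.68. The other 6 did not pass, among them *Paics*, of purine synthesis (0.53), and *Cad*, of pyrimidine synthesis (0.56, adjusted p = 0.162). With the DKO naive groups alone, 19 of the 21 were higher.

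Of 15 glucose and amino acid transporters, 11 rose and 0 fell (median 1.75). *Slc7a5*, the light chain of the transporter for large neutral amino acids, went from 119, 94.7 and 76.7 TPM to 877, 1105 and 1195 TPM (log2 fold change 3.74 ± 0.33 (SE), adjusted p = 9.99e-09), and its heavy chain partner *Slc3a2* rose by 2.91. The glutamine transporter *Slc1a5* rose by 2.81 and the arginine transporter *Slc7a1* by 2.54. *Slc2a3*, a glucose transporter of resting lymphocytes, did not pass (0.45, adjusted p = 0.258).

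Chaperones rose in 14 of 20 cases (median 1.64) and stress response genes in 15 of 21 (median 1.29), with none of either group called lower. Without chimera 11, 10 stress response genes were higher. In some settings 2 of them were lower: without chimera 12, without its WT naive and stimulated libraries and with the DKO naive groups alone. The same held with limma on log2(TPM + 1), with TMM factors from genes with logCPM over 1 and with only those genes tested. Targets of ATF4 were among the largest changes of the stress response genes. *Sesn2* went from 7.2, 6.26 and 6.55 TPM to 150.3, 201 and 243 TPM (log2 fold change 5.15 ± 0.34 (SE), adjusted p = 1.88e-10), *Chac1* from 0.965, 0.262 and 0.121 TPM to 24.5, 36.1 and 52.3 TPM (log2 fold change 6.0 ± 0.65 (SE), adjusted p = 2.91e-07) and *Trib3* rose by 3.0. *Hspa5*, the ER chaperone BiP, rose by 2.35, but *Manf* (0.55), *Dnajc3* (−0.55) and *Pdia4* (−0.58), ER genes that are usually raised with it, did not pass. *Hsph1* rose by 2.51, *Hspa9* by 2.13 and *Hspd1*, of mitochondria, by 1.91.

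Glycolysis was divided, with 7 of 17 genes higher and 4 lower (median 0.33). *Pgam1* rose by 1.89 and *Pgk1* by 1.38, and *Hk2*, the inducible hexokinase, went from 1.22, 1.03 and 0.961 TPM to 5.38, 6.43 and 5.72 TPM (log2 fold change 2.76 ± 0.51 (SE), adjusted p = 0.000316). *Eno1* fell from 577, 548 and 499 TPM to 162, 149 and 136 TPM (log2 fold change −1.57 ± 0.26 (SE), adjusted p = 9.73e-05), and *Pfkm* and *Aldoc* fell too (log2 fold changes −1.54 and −2.88). *Pkm* (0.38, adjusted p = 0.441) and *Hk1* (−0.58, adjusted p = 0.148) did not pass. Near-identical processed copies of glycolytic genes exist in the mouse genome, and reads they share may be split, so that the values of *Eno1* and *Pgam1* are uncertain. Without chimera 11, 4 members were higher, and 7 were lower with TMM factors from genes with logCPM over 1, with only those genes tested and with limma on log2(TPM + 1).

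Cholesterol genes moved both ways, with 8 of 25 higher and 6 lower (median −0.04). *Cyp51*, a sterol demethylase, rose by 1.14. *Dhcr7*, of the last step, fell from 39.1, 26.7 and 29.8 TPM to 6.44, 5.05 and 4.51 TPM (log2 fold change −2.27 ± 0.26 (SE), adjusted p = 6.23e-07), and *Mvd* fell by 1.66. The efflux transporters *Abca1* and *Abcg1*, targets of the LXR receptors, also fell (log2 fold changes −1.53 and −1.75). Without chimera 11, 2 members were higher, and 12 were lower with limma on log2(TPM + 1).

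BCL-2 family genes rose on both the survival and the death side, with 8 of 16 higher and 1 lower (median 0.59). *Bcl2a1d* went from 4.22, 4.31 and 5.5 TPM to 161, 190.5 and 188 TPM (log2 fold change 5.5 ± 0.34 (SE), adjusted p = 5.13e-11) and *Bcl2a1b* rose by 4.65, both A1 survival genes whose copies are nearly identical, so that the split of reads between them is uncertain. *Bcl2l1*, which encodes BCL-XL, rose by 1.91. Of the death genes, *Pmaip1* (NOXA) rose by 2.6 and *Bcl2l11* (BIM) by 1.54. *Bcl2* (0.40, adjusted p = 0.364) and *Mcl1* (0.41, adjusted p = 0.369) did not pass, and the 1 lower call, *Bad*, was lost in each fit that left out a chimera.

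Genes of the cell cycle showed no common direction at 3 h. Of 15 cyclin and inhibitor genes, 3 rose and 5 fell (median −0.5). *Cdkn1a*, which encodes the CDK inhibitor p21, went from 1.81, 0.524 and 0.835 TPM to 47.4, 57 and 75 TPM (log2 fold change 5.9 ± 0.45 (SE), adjusted p = 1.08e-09). *E2f2* (log2 fold change −2.8), *Ccne1* (−2.37) and *Cdkn2d*, an INK4 inhibitor (−2.34), fell. *Ccnd2* was higher (1.0) and *Ccnd3* lower (−1.2), and both calls were lost without chimera 11. The count of lower members was 3 without chimera 10 or 11, and that of higher ones 5 with the DKO naive groups alone and without the WT naive and stimulated libraries of chimera 12. Of 20 replication and mitosis genes, 3 rose and 0 fell, beside 2674 and 1764 of the 15067 genes with a mean logCPM over 1. Those that rose were *Pcna* (log2 fold change 1.62), *Mcm5* (1.08) and *Mcm2* (0.83), and the calls of the MCM genes were lost without chimera 11. Without chimera 12, 6 of the 20 were higher, and 7 were with the DKO naive groups alone. Within the MYC network, 3 of 10 were higher and 1 lower. Besides *Myc*, the higher ones were *Mxd3*, lost without chimera 10 or 11 and with limma, and *Mlxip*, lost without chimera 11. The lower one was *Mxd4*, lost without chimera 10 and with RLE factors. The shared partner *Max* had 61.5 ± 13 to 57.4 ± 11.5 TPM and did not pass (adjusted p = 0.681).

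The gene that fell with the smallest adjusted p was *Dtx1*, a Notch pathway E3 ligase linked to anergy, from 234, 158 and 205 TPM to 2.93, 3.61 and 3.3 TPM (log2 fold change −5.59 ± 0.31 (SE), adjusted p = 1.75e-11). *Flt3l*, a cytokine that T cells make constitutively, went from 180.5, 133 and 147 TPM to 5.51, 6.17 and 6.25 TPM (log2 fold change −4.36 ± 0.29 (SE), adjusted p = 1.88e-10). *Igfbp4*, which marks recently matured and naive T cells, went from 912, 807 and 835 TPM to 36.2, 34.8 and 28.4 TPM (log2 fold change −4.39 ± 0.30 (SE), adjusted p = 2.05e-10). In all 3 genes the highest stimulated library lay far below the lowest unstimulated one. Others among the most clearly lower genes were *Treml2* (log2 fold change −3.63), *Rab37*, of vesicle traffic (−3.52), *Slfn5*, of the Schlafen family (−3.27), *Ccdc69* (−3.36) and *Fcgrt*, the neonatal Fc receptor (−3.92). *Slc16a5*, a monocarboxylate transporter, went from 125, 103 and 104 TPM to 3.04, 4.04 and 2.26 TPM (log2 fold change −4.82 ± 0.35 (SE), adjusted p = 4.94e-10), together with *Gm11695* on the opposite strand (−4.25), and the uncharacterised gene *BC147527* from 164, 131 and 159.6 TPM to 3.63, 3.79 and 3.76 TPM (log2 fold change −4.98 ± 0.33 (SE), adjusted p = 1.95e-10). *Gm11346*, *G430095P16Rik* and *D930028M14Rik*, whose log2 fold changes were −3.35, −5.07 and −4.98, lie on the strand opposite *Ripor2*, *Nfix* and *Pou2f2*, and reads of these pairs cannot be told apart.

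Among 30 genes that mark naive or quiescent T cells, 13 fell and 4 rose. The median of the 30 was −0.46, against −0.33 over all genes and −0.15 over those with a mean logCPM over 1. *Pik3ip1*, an inhibitor of PI3K, went from 244, 205 and 256 TPM to 43.4, 36.5 and 32.6 TPM (log2 fold change −2.34 ± 0.25 (SE), adjusted p = 2.91e-07), and *Dapl1* (−2.58) and *Txnip*, which restrains glucose uptake (−1.7), fell. The quiescence factors were not uniform. *Ccr7* (2379 ± 236 to 1359.6 ± 248 TPM) did not pass the test (−0.51, adjusted p = 0.247), nor did *Btg1* (0.32) or *Gimap4* (0.29). The 4 that rose were *Btg2* (1.58), *Satb1* (1.38), *Gimap5* (1.15) and *Tob1* (0.87), the last 3 of which lost the call without chimera 11. The count of lower members was 8 without chimera 11, and that of higher members was 1 without chimera 11, 7 without chimera 12, 8 with the DKO naive groups alone and 10 without the WT naive and stimulated libraries of chimera 12.

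Type I interferon response genes fell without exception: 25 of 25 were called lower (median −2.15), in DKO as in WT cells. *Rtp4* went from 74.9, 69.8 and 84.9 TPM to 6.69, 6.21 and 5.63 TPM (log2 fold change −3.3 ± 0.23 (SE), adjusted p = 2.62e-10). *Zbp1*, a sensor of Z-form nucleic acid, went from 139, 112 and 153 TPM to 19.1, 14.7 and 16.3 TPM (log2 fold change −2.7 ± 0.22 (SE), adjusted p = 2.73e-09), and *Usp18*, the feedback inhibitor of the interferon receptor, from 96.8, 106 and 109 TPM to 16.3, 15.1 and 13.5 TPM (log2 fold change −2.49 ± 0.22 (SE), adjusted p = 1.15e-08). *Cmpk2* and *Xaf1* had log2 fold changes of −3.15 and −2.91. The smallest fall in the list was −1.17, in *Isg20*. Between 19 and 25 of the 25 remained called over the settings tried, with 19 without chimera 10. Unstimulated cells had come straight from the animal and stimulated ones had been 3 h away from it, so that an effect of TCR signals on these genes and of leaving the animal cannot be told apart.

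**Figure D3:**
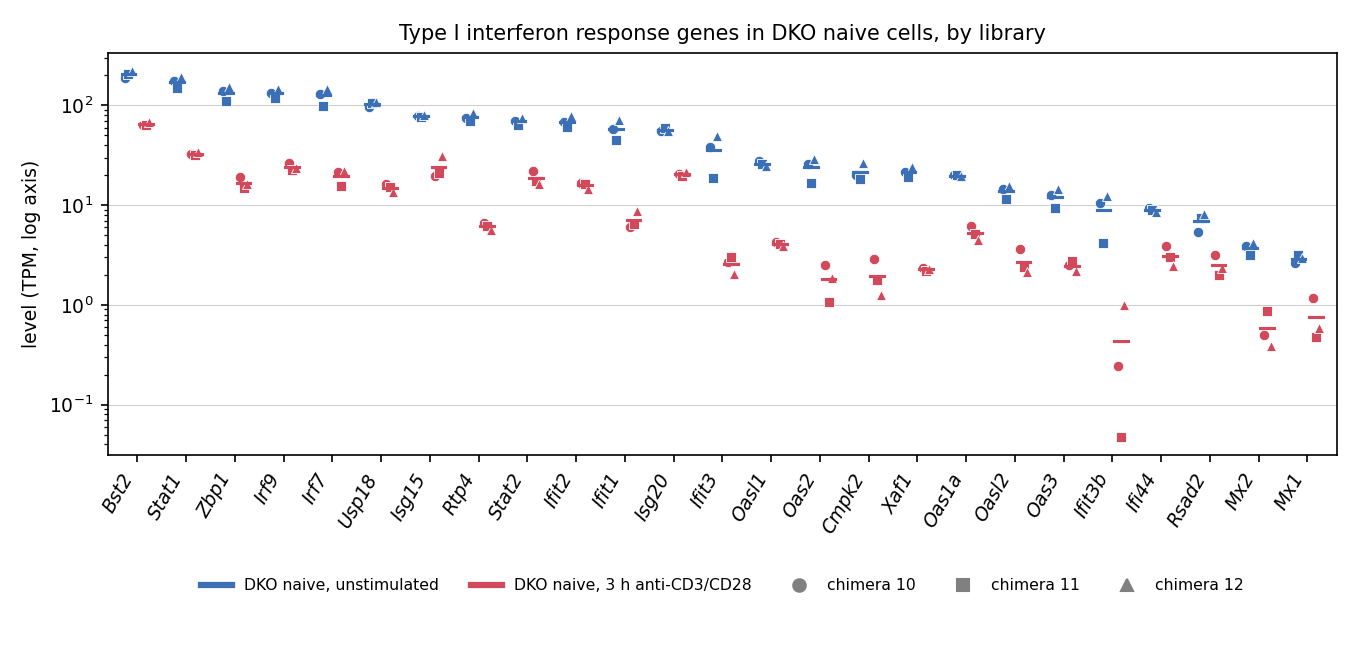
Deposited TPM of type I interferon response genes in the 6 DKO libraries, on a log axis; each point is 1 library (blue unstimulated, red stimulated, with a marker shape per chimera) and each bar the mean of 3 libraries. In *Rtp4* the unstimulated libraries lie between 69.8 and 84.9 TPM and the stimulated ones between 5.63 and 6.69 TPM.

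Genes of T cell identity stayed at high levels. The summed TPM of 14 such genes was 15931 to 16799 without and 18135 to 19480 with stimulation. *Cd3e* (0.28, adjusted p = 0.558), *Lck* (0.62, adjusted p = 0.217) and *Cd4* (−0.51, adjusted p = 0.232) did not pass the test. *Cd5*, an inhibitor of TCR signals set by their strength, rose by 2.44, *Zap70* by 1.85, *Cd6* by 1.76 and *Cd28* by 1.47, and *Thy1* fell by 1.25. *Trac* was higher (1.1), a call lost without chimera 11. Of the other genes of the sort gate, *Izumo1r*, which encodes FR4, went from 64.7, 88.6 and 89.97 TPM to 186, 273 and 262 TPM (log2 fold change 1.86 ± 0.29 (SE), adjusted p = 4.43e-05), and *Nt5e*, which encodes CD73, did not pass (0.64, adjusted p = 0.0917).

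Markers of other cell types moved with stimulation, and their part in the results above was not tested. The summed TPM of 10 B cell genes fell from 1065 to 1252 down to 161 to 219, nearly all of it *Ighm*, which went from 1211, 1025 and 1064 TPM to 192, 189.5 and 143 TPM (log2 fold change −2.36 ± 0.30 (SE), adjusted p = 2.29e-06). Of the 10, 3 were called lower and 0 higher (1 lower without chimera 10 or 11): besides *Ighm* these were *Cd79b* (3.16 ± 1.69 to 0.782 ± 0.25 TPM, log2 fold change −1.54) and *Ighd* (4.44 ± 0.541 to 1.96 ± 0.338 TPM, log2 fold change −0.84). The B cell markers *Cd79a* (21.5 ± 2.54 to 12.4 ± 2.97 TPM) and *Ms4a1* (5.64 ± 0.423 to 3.27 ± 1.04 TPM) did not pass the test. CD8 and NK cell genes summed to 185 to 199 TPM without and 112 to 129.7 TPM with stimulation, with 2 of 10 lower, both lost without chimera 10. The sum of 15 myeloid and antigen-presenting cell genes rose from 163 to 224 TPM up to 271 to 479.6 TPM. The 3 that rose, of 14 tested, were MHC class II genes: *H2-Aa* went from 4.86, 5.24 and 5.0 TPM to 32.6, 72.7 and 102 TPM (log2 fold change 3.93 ± 0.60 (SE), adjusted p = 3.77e-05), *H2-Ab1* rose by 2.48 and *Cd74*, the invariant chain, by 1.2, the last lost without chimera 11. *Cd68* (7.3 ± 1.43 to 7.04 ± 1.63 TPM) and *Flt3* (3.32 ± 0.657 to 1.63 ± 0.652 TPM) did not pass. Red cell and platelet genes summed to 10.5 to 17.2 TPM without and 4.47 to 9.66 TPM with stimulation, with none of 4 tested called.

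Of 10 regulatory T cell genes, which summed to 207 to 229.7 TPM without and 537 to 654 TPM with stimulation, 5 were higher and 2 lower. Those higher were *Il2ra* (log2 fold change 6.62), *Ctla4* (2.91), *Tnfrsf18* (1.28), *Gpr83* (2.23) and *Lrrc32*, which encodes GARP (0.563 ± 0.172 to 1.89 ± 0.603 TPM, log2 fold change 1.98), the last lost with limma. Of the lower ones, *Ikzf4* (4.94 ± 0.761 to 2.43 ± 0.711 TPM, log2 fold change −0.73) lost its call on leaving out any chimera, with RLE factors, with DESeq2 and with no low-count filter. *Foxp3*, the lineage factor, had 1.25, 0.281 and 1.34 TPM without and 0.106, 0.227 and 0.308 TPM with stimulation, and its lower call (log2 fold change −1.58) was lost without chimera 10, with the DKO naive groups alone and with limma. Mitochondrially encoded genes showed 0 calls of 11 tested at an adjusted p under 0.05, and summed to 8301 to 10155 TPM without and 7398 to 9759 TPM with stimulation.

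WT naive cells from the same 3 hosts, given the same stimulation, had 2408 genes called higher (7.13% of those tested) and 1619 lower (4.79%). Genes called higher in both genotypes numbered 2150, which is 76.2% of the DKO and 89.3% of the WT calls, and those lower in both 1411, which is 72.8% of the DKO and 87.2% of the WT calls. Whether a gene's response differed was tested with the interaction term, the DKO response minus the WT response. No gene was called with a higher response in DKO cells (0% of 33795) and 1 with a lower one (0.00296%), while 108 and 524 passed at an unadjusted p under 0.05. Together these are fewer than a p under 0.05 would pass by chance over 33795 tests. The median difference was −0.18 over all genes and −0.04 over those with a mean logCPM over 1. Over all genes the median log2 fold change was −0.33 in DKO and 0.02 in WT cells. The larger lower count runs with that shift, whose part in it was not tested. An absent call does not show that the responses were equal. For *Nr4a2* the log2 fold change was 9.38 in DKO and 8.31 in WT cells (difference 1.07 ± 0.56 (SE), adjusted p = 1), for *Irf4* 6.91 and 7.0 (−0.09 ± 0.34 (SE), adjusted p = 1) and for *Egr2* 4.96 and 4.33 (0.63 ± 0.40 (SE), adjusted p = 1).

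Counts by gene group can be set side by side. All 24 ribosome biogenesis genes rose and all 25 interferon genes fell in WT cells as well, 8 of the 9 NR4A and EGR genes rose (9 in DKO), 11 of 28 cytokines rose (13 in DKO) and 12 of 30 naive and quiescent genes fell (13 in DKO). Differences in these counts were not tested. *Egr4* had the smallest unadjusted p for the difference among the NR4A and EGR genes: its log2 fold change was 3.96 in DKO and 1.34 in WT cells (difference 2.62 ± 0.66 (SE), unadjusted p = 0.000594, adjusted p = 1), and with 0 counts in some libraries these fitted values depend on the prior count. For *Il2* the values were 3.47 and 2.77 (difference 0.70 ± 0.81 (SE), adjusted p = 1).

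The gene whose response differed was *Gpr155* (chr2:73341506-73386572, minus strand, mm10), a lysosomal protein related to cholesterol sensing. In DKO cells it had 7.15, 8.25 and 7.7 TPM without and 5.62, 2.97 and 2.06 TPM with stimulation (log2 fold change −0.88). In WT cells from the same hosts it had 8.49, 7.57 and 6.86 and 31, 15.5 and 16.3 TPM (log2 fold change 1.61). The difference was −2.49 ± 0.37 (SE) with an adjusted p of 0.0208 by edgeR, with DKO below WT in 3 of 3 chimeras after stimulation and overlapping levels without it. The call was lost with RLE factors (adjusted p = 0.438), with DESeq2 (0.0644), with the compared groups alone (0.0738) and without chimera 10 (0.204) or 11 (0.433). It overlaps the predicted genes *Gm13703* and *Gm13709* on the other strand.

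**Figure D4:**
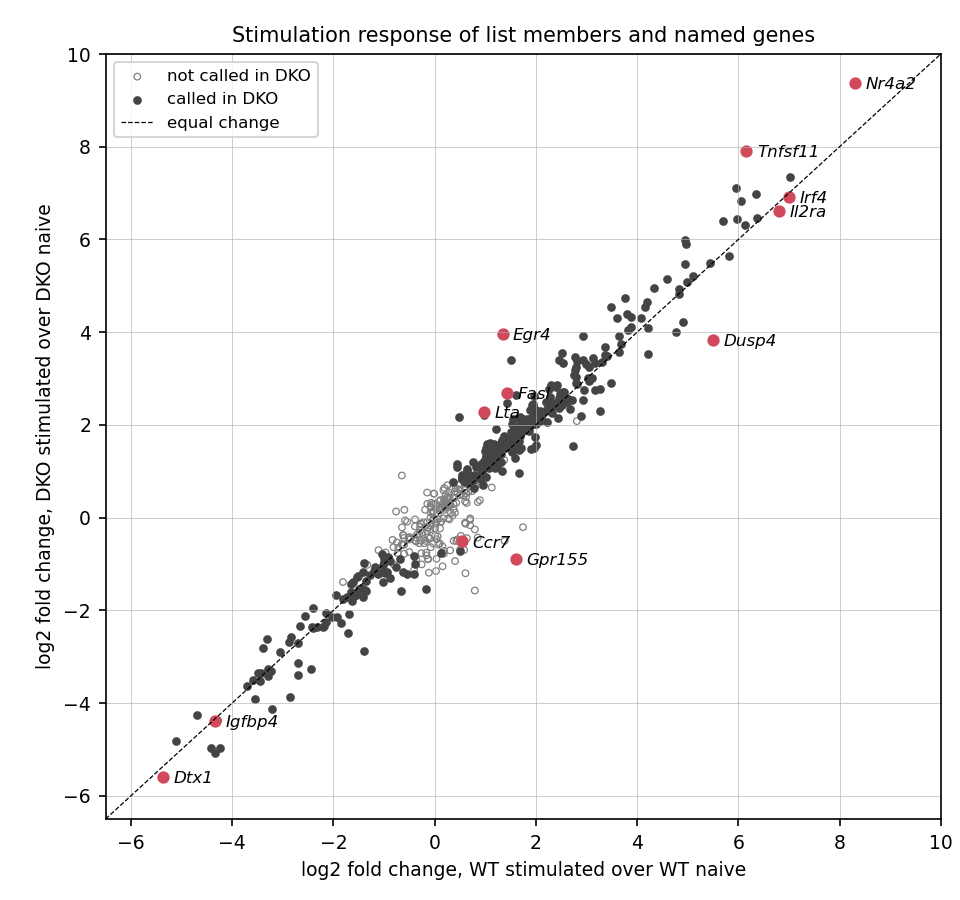
Fitted log2 fold change on stimulation in WT (x axis) and DKO naive cells (y axis) for the 559 genes of the lists and the named genes that were tested; the 368 called in DKO cells are filled, the others open, red points are labelled genes, and the dashed diagonal marks equal responses. *Nr4a2* lies at 8.31 and 9.38, and *Gpr155*, with −0.88 in DKO and 1.61 in WT cells, is the gene whose difference passed the test.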

How the data were processed

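SMART-seq cDNA was made from the RNA of sorted cells and sequenced. The authors aligned reads with STAR to mm10 and made the deposited counts with featureCounts. The deposited TPM were computed by the authors too. No versions are stated in the sources used here. The deposited tables of the authors' own edgeR comparisons (fold changes and p-values) were not used. Blank names (117 of 55401 entries, 0.0654% to 0.136% of counts) were left out.

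All 18 libraries were fitted together in R 4.3.3 with edgeR 4.0.16 (TMM factors, glmQLFit, 6 groups and the chimera as a block) on the 33795 genes kept by filterByExpr. The quasi-likelihood test of edgeR (glmQLFTest) gave p-values, adjusted over all genes by Benjamini-Hochberg, and called at an adjusted p under 0.05. SEs were derived from the log2 fold change and its F statistic. The pairing rests on the shared host: deviations from group means of stimulated and unstimulated libraries of 1 chimera correlated at −0.036 to 0.0292. Over genes with a mean logCPM over 1 these correlations were −0.115 to 0.0802. The code was tested on simulated data.

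The members and gene lists were chosen with earlier results of these data known. Named genes are the stimulation markers, the disrupted and gate genes, in each list up to 5 called members per direction with the smallest adjusted p and up to 3 uncalled ones with the highest logCPM, and, among genes with logCPM over 1 moving the same way in 3 of 3 chimeras, the 12 per direction with the smallest adjusted p and the 10 with the largest change, besides those whose response differed. Alternatives were no block, RLE factors, TMM from genes with logCPM over 1, DESeq2 1.42.0, edgeR's likelihood ratio test, other filters, the compared groups alone, limma 3.58.1 on log2(TPM + 1), and leaving out chimeras or the WT naive and stimulated libraries of chimera 12. P-values measure the spread left within groups after the chimera block, pooled over all 18 libraries from 3 hosts. Some named genes are not reported here.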

Additional observations from a re-analysis of the deposited data

Results flagged for a closer look

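*Gpr155* was the gene whose response to stimulation differed between the genotypes by the test of the difference itself: the DKO minus WT log2 change was −2.49 ± 0.37 (SE, adjusted p = 0.0208 by edgeR), from −0.88 in DKO and 1.61 in WT cells. Over the settings tried this difference ran from −2.77 to −2.13, but its call was not kept in all of them. It was lost with RLE factors (adjusted p = 0.438), with DESeq2 (0.0644) and with the compared groups alone (0.0738). Leaving out chimera 10 (0.204) or 11 (0.433) lost it too. Its overlap with predicted genes on the other strand was not resolved, and their part in the difference was not tested.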

How the results depend on the processing

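Of 269 genes named by the rule, 187 were called, 150 of them under every setting in which they were tested. Of the called ones, 0 changed direction. Some that were not called did, such as *Batf*, *Batf3* and *Cbl*. The count of genes higher (2820) was 5108 with the compared groups alone and 4985 without the WT naive and stimulated libraries of chimera 12, and leaving out 1 chimera gave 1247 to 4118. The count lower (1937) was 1092 with RLE factors, 3230 with the compared groups alone, 2844 without those WT libraries and 4281 with limma on log2(TPM + 1), and 742 to 2368 on leaving out 1 chimera. Without chimera 11, 1244 of the higher and 831 of the lower calls remained. Without the replicate block, 2890 were higher and 1967 lower, and no count by group moved by over 1.5 times.

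For the response difference, the count higher (0) was 7 with no low-count filter, 1 without the WT libraries of chimera 12, 0 to 1 on leaving out 1 chimera and 108 at an unadjusted p under 0.05. The count lower (1) was 0 with RLE factors and with the compared groups alone, 2 with DESeq2 and without the WT libraries of chimera 12, 3 with TMM factors from or tests of genes with logCPM over 1 and with no filter, 5 with the likelihood ratio test and with limma, 0 to 3 on leaving out 1 chimera and 524 unadjusted. The causes were not tested. With RLE factors the median over all genes moved from −0.33 to −0.16 on the log2 scale.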
